A study of Mus musculus with 8 samples.

Results

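Axon guidance genes encode the ligands and receptors that steer growing nerve fibres and blood vessels. The 64 studied here were measured in 8 libraries of mouse pancreatic tumours, 4 from mice given TLQP21 and 4 from mice given saline. They were the protein-coding semaphorins of classes 3 to 7 (20 genes), plexins (9), neuropilins (2), ephrins (8), Eph receptors (14), Slits (3), Robos (4), netrins (3) and Dcc (1), taken by gene name from a table of 54532 genes. The tumours were grown in the pancreas of C57BL/6 mice from KPC cells, a mouse line of pancreatic ductal adenocarcinoma, and were harvested after 2 weeks of treatment. The TLQP21 group received TLQP21, a peptide fragment of VGF, the Saline group received saline, and both groups carried the same implanted line. The series asks which transcripts accompany the slower tumour growth that its submitters describe under the peptide. The labels give neither the age of the mice nor the alleles or clonality of the line, and they do not say whether each library came from its own mouse, so the spread between libraries may be partly technical.

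Semaphorins signal through plexins, class 3 semaphorins mostly with a neuropilin as co-receptor. Ephrins and Eph receptors are both anchored in the membrane and signal in both directions where cells touch, Slits bind Robos, and netrins bind Dcc and the Unc5 receptors. In tumours the same molecules are known for roles in cell contact, vessel growth, immune cell movement and the ingrowth of nerves, and the SLIT and ROBO genes are recurrently altered in human pancreatic cancer.

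The labels name pancreatic cancer cells, but whole tumours were sequenced. Epithelial tumour markers averaged 8.59 to 8.70 log2 CPM (CPM are read counts relative to the scaled library total) in the 8 libraries, beside fibroblast markers at 7.22 to 7.96 and endothelial markers at 4.44 to 5.12. In such bulk tissue, fewer cells of a type and less RNA per cell cannot be told apart. Nerve tissue gave few reads. Of 10 neuronal markers 4 passed the filter on low counts, and the neurofilament gene Nefm had 5 reads over the TLQP21 libraries and 13 over the Saline libraries. The Schwann cell factor Sox10 had 7 and 5 reads. Libraries totalled 29027480 to 33536087 reads in TLQP21 and 28358465 to 28963457 in Saline, and every TLQP21 library was deeper (exact two-sided permutation p = 0.0286, the smallest that 70 assignments allow; 0.429 adjusted over this total and 14 marker levels). No marker level passed that test unadjusted, the nearest being neutrophil markers (3.87 log2 CPM in TLQP21 and 4.73 in Saline, exact p = 0.0571, 0.429 adjusted). Some libraries stand apart. Saline 2 held liver transcripts (hepatocyte markers at 8.15 log2 CPM, against 1.33 to 2.03 elsewhere), Saline 4 had the highest endothelial, fibroblast and acinar levels, and TLQP21 4 was the highest of all libraries for 26.8% of genes and the lowest for 27.2%. Libraries 3 and 4 of each group held 2027 to 2247 reads of 4 Y-linked genes, whereas libraries 1 and 2 held 1 to 20 of them and 9960 to 10625 reads of Xist, a split that the labels do not mention. The pairs are called the Y libraries and the Xist libraries, and differences in the Xist libraries and in the Y libraries are given in that order.

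**Figure D1:**
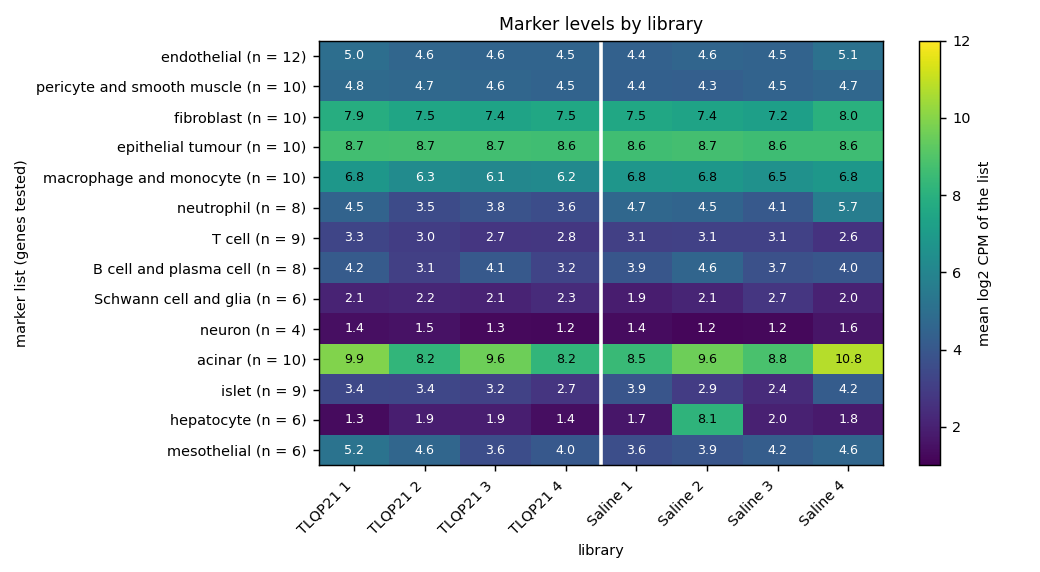
Mean log2 CPM of each marker list in each library, with the 4 TLQP21 libraries left of the 4 Saline libraries and the number of genes tested in brackets. Epithelial tumour markers vary little between libraries (8.59 to 8.70), while every other list differs more, the hepatocyte, acinar and neutrophil lists most.

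Some members share a chromosome and strand with relatives, and the levels of such genes were unequal in the sets given here. On chromosome 3 of GRCm38, Efna1, Efna3 and Efna4, which encode membrane-anchored A-type ephrins, lie on the same strand, with 32.756 kb between Efna1 and Efna3 and 10.424 kb between Efna3 and Efna4. Per kb of gene length (a scale that lets genes be compared), Efna1 averaged 39.7 CPM, Efna4 16.8 and Efna3 0.784 over the 8 libraries. On chromosome 5, Sema3d, Sema3a, Sema3e and Sema3c, which encode secreted semaphorins, follow each other in that order on the plus strand. The distances between them, in that order, are 536.465, 422.71 and 3317.591 kb, so Sema3c lies far from the others. Their levels were 0.408 CPM per kb for Sema3d, 0.986 for Sema3a, 10.1 for Sema3e and 17.7 for Sema3c. The promoters of the 3 ephrin genes and of the least and most abundant of these semaphorin genes are shown because they stand beside these unequal levels. They run from 250 bases before to 50 bases after the first start that RefSeq lists for the gene (GRCm38.p6), 5′ to 3′ on the strand of the gene. That start equals the deposited one for Efna4 and lies downstream of it by 26 bases for Efna3, 191 for Efna1 and 535 for Sema3c, and upstream of it by 219 for Sema3d. By the deposited coordinates the Sema3c window thus lies inside the gene and the Sema3d window ends before it. Capitals mark the GC box GGGCGG, a binding motif of Sp1, and the TATA box TATAAA, each on either strand.
Efna1: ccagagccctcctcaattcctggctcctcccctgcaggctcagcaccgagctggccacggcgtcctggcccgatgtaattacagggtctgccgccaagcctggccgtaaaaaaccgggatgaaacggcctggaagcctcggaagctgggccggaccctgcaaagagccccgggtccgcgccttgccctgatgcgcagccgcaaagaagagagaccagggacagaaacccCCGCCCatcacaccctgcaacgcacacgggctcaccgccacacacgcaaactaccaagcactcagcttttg
Efna4: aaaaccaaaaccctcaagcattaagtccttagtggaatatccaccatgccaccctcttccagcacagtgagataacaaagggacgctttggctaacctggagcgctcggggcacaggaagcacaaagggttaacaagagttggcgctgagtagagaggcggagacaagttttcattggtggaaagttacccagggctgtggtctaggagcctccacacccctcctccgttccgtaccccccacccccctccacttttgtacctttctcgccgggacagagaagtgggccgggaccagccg
Efna3: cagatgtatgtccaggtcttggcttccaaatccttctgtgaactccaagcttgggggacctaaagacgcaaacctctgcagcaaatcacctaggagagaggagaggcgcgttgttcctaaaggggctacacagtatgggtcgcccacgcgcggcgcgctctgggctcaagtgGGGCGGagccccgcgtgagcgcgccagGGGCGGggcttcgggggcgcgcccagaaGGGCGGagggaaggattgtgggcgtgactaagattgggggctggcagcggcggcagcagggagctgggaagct
Sema3c: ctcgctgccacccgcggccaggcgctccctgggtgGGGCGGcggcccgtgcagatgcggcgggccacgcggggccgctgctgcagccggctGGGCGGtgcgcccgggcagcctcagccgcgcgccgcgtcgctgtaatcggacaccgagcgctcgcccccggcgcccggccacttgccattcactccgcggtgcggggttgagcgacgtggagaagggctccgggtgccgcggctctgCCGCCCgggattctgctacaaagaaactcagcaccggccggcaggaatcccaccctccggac
Sema3d: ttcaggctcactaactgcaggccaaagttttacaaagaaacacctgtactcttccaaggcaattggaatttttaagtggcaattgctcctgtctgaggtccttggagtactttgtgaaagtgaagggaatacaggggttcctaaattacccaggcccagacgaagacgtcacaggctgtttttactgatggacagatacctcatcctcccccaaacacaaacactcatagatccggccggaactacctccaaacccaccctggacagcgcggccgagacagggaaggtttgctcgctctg
The Efna1 window (chr3:89280902-89281201, minus strand) held 20 CpG dinucleotides and 1 GC box, the Efna4 window (chr3:89337979-89338278, minus strand) 11 and 0, and the Efna3 window (chr3:89322890-89323189, minus strand) 22 and 3. The Sema3c window (chr5:17574566-17574865, plus strand) held 42 CpG dinucleotides and 3 GC boxes, and the Sema3d window (chr5:12382916-12383215, plus strand) 8 and 0. None of the 5 held the TATA box. Promoters were found for 55 of the 64 members. Of these, 40 held a GC box (72.7%), against 46.3% of 17491 promoters of protein-coding genes and 35.9% of all 27025, and 2 held a TATA box (3.64%, against 13.3% and 14.2%). The GC box overlaps CpG-rich sequence in general, and the windows of the members had a median of 21 CpG dinucleotides, against 13 in protein-coding genes. A match of letters is no evidence of a bound factor.

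Of the 64 members, 58 passed the filter on low counts and were tested. The other 6 were near 0. Epha8 had 10 reads over the 4 TLQP21 libraries and 8 over the 4 Saline libraries, Robo3 had 26 and 13, Epha10 had 1 and 3, Epha5 had 1 and 3, and Dcc, the netrin receptor, had 1 and 0. Epha6 had no read in any library.

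No axon guidance gene passed the test between TLQP21 and Saline tumours. By edgeR's quasi-likelihood test with Benjamini-Hochberg adjustment over 18238 genes, 0 of the 58 members were higher and 0 lower in TLQP21 at an adjusted p under 0.05, as for all genes (0% called in each direction). Unadjusted, 0 of 58 had a p under 0.05, against 3.06% of all genes (0.795% higher and 2.26% lower). By DESeq2, 0 members passed adjusted and 0 unadjusted (2.3% of all genes unadjusted). By limma's voom with quality weights 0 passed adjusted and 4 unadjusted (6.9%, against 10.6% of all genes), 3 of them higher (5.17%, against 3.98%) and 1 lower in TLQP21 (1.72%, against 6.62%). The ranges of the groups overlapped for each of the 58 members, whereas they did not for 1.66% of all genes. Log2 fold changes (TLQP21 minus Saline) lay above 0 for 27 members (46.6%, against 50.6% of all genes) and below 0 for 31 (53.4%, against 49.4%), with a median of -0.02, against 0.0020 over all genes tested. For 53 of 58 members (91.4%, against 79.6% of all genes) neither bound of the 95% interval reached 2-fold, and for 40 (69%, against 55.1%) neither reached 1.5-fold. The 5 members with wider intervals were Sema3d, Sema5b, Plxnb3, Epha7 and Ntn5, each under 0.5 CPM per kb.

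**Figure D2:**
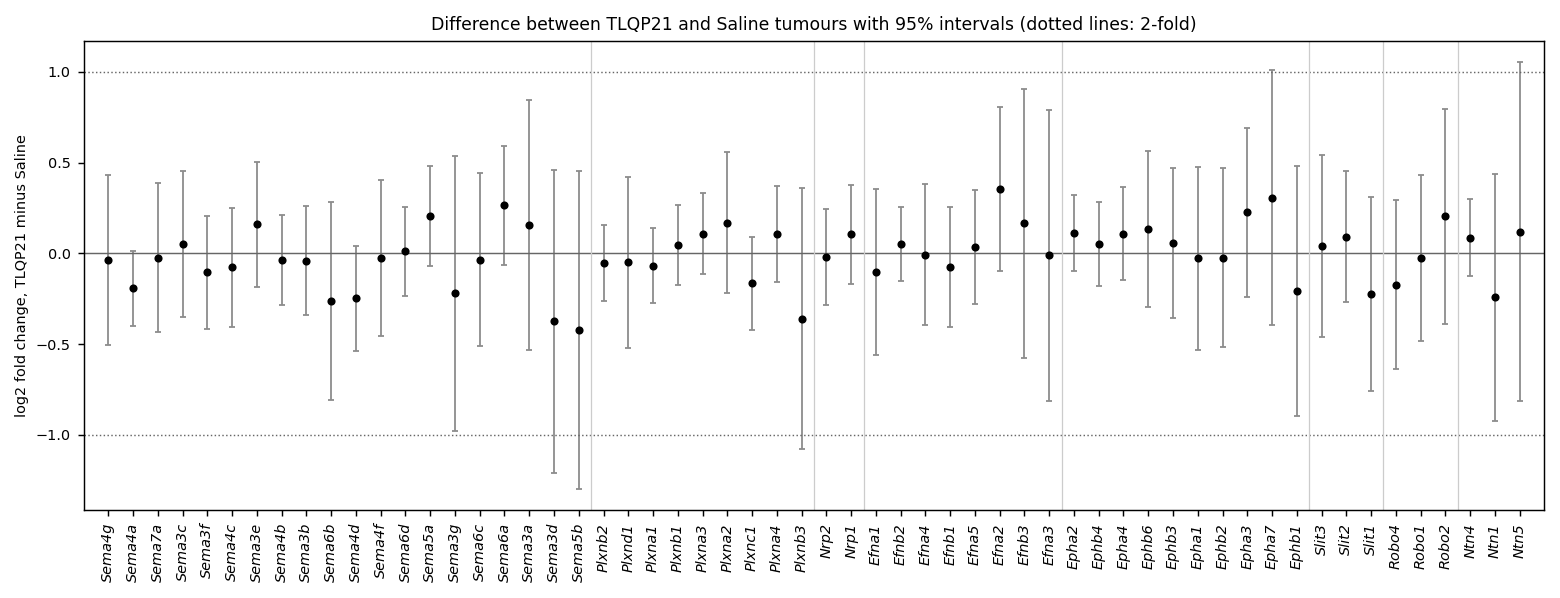
Log2 fold change (TLQP21 minus Saline, edgeR) of the 58 tested members with 95% intervals, grouped by family and ordered by level within a family; dotted lines mark 2-fold. Each interval includes 0, and 53 of 58 lie within 2-fold in both directions.

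The 20 semaphorin genes all passed the filter, with 6 log2 fold changes above 0 and 14 below (median -0.04). Per kb of the deposited length, Sema4g held 17.2% of the summed level of the family and Sema4a 12.8%. This order rests on the length of Sema4g, deposited as 4872 bases. With the 8661 exon bases that GENCODE M21 gives, Sema4g would be at 17.5 CPM per kb, below Sema4a (23.2), Sema7a (19.3) and Sema3c (17.7). No other member had a different length there. Sema4g, a transmembrane semaphorin (chromosome 19, 44989101 to 45003397), had 132.9, 164.1, 171.5 and 130.4 CPM in TLQP21 libraries 1 to 4, against 117.02, 150.8, 228.2 and 118.05 CPM in Saline libraries 1 to 4. Saline 3 was the highest of all 8, and the TLQP21 range lay within the Saline range. The log2 fold change was -0.04 (SE 0.21), and 0.15 and -0.20 in the Xist and the Y libraries taken apart. Sema4a, a transmembrane semaphorin known from immune cell activation (chromosome 3, 88435959 to 88461182), had 123.7, 124.7, 118.2 and 102.6 CPM in TLQP21, against 121.2, 140.2, 140.8 and 133.97 CPM in Saline. TLQP21 1 and 2 lay above the lowest Saline library, TLQP21 3 and 4 below it, and the log2 fold change was -0.19 (SE 0.09, unadjusted p = 0.0658, adjusted p = 0.9999 by edgeR), with -0.07 and -0.32 in the Xist and the Y libraries. This was the smallest p of any member. Macrophage and monocyte markers averaged 6.36 log2 CPM in TLQP21 and 6.73 in Saline (exact permutation p = 0.0857, 0.429 adjusted), and their part in the values of Sema4a was not tested.

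Secreted class 3 semaphorins spanned a wide range. Per kb, Sema3c averaged 18.0 ± 4.89 CPM in TLQP21 and 17.4 ± 2.38 in Saline (SD, n = 4 each), Sema3f 15.4 ± 2.77 and 16.6 ± 1.80, Sema3e 10.7 ± 2.54 and 9.57 ± 0.871, and Sema3b 8.99 ± 1.26 and 9.24 ± 1.30. Sema3g, a semaphorin of endothelial cells, averaged 1.36 ± 0.524 and 1.58 ± 0.533 CPM per kb. Sema3g had the widest ratio among the tested members, 3.61 between its highest library (Saline 4) and its lowest (TLQP21 4), whereas the SD of log2 CPM over the 8 libraries was larger for Sema3d (0.61) than for Sema3g (0.56). Among the membrane-bound classes, Sema7a, which carries a lipid anchor and signals through plexin C1 and integrins, averaged 19.2 ± 3.65 CPM per kb in TLQP21 and 19.5 ± 4.36 in Saline, and Sema4d, the ligand of plexin B1, 7.60 ± 1.25 and 9.02 ± 1.002. Sema4c (11.04 ± 2.35 and 11.6 ± 0.271), Sema4b (9.94 ± 1.02 and 10.2 ± 1.23) and Sema6b (8.08 ± 2.42 and 9.68 ± 2.41) were of like level. The remaining semaphorins, among them Sema4f, Sema5a, Sema6a, Sema6c and Sema6d, averaged under 5 CPM per kb, and Sema5b was lowest at 0.0837 over the 8 libraries.

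**Figure D3:**
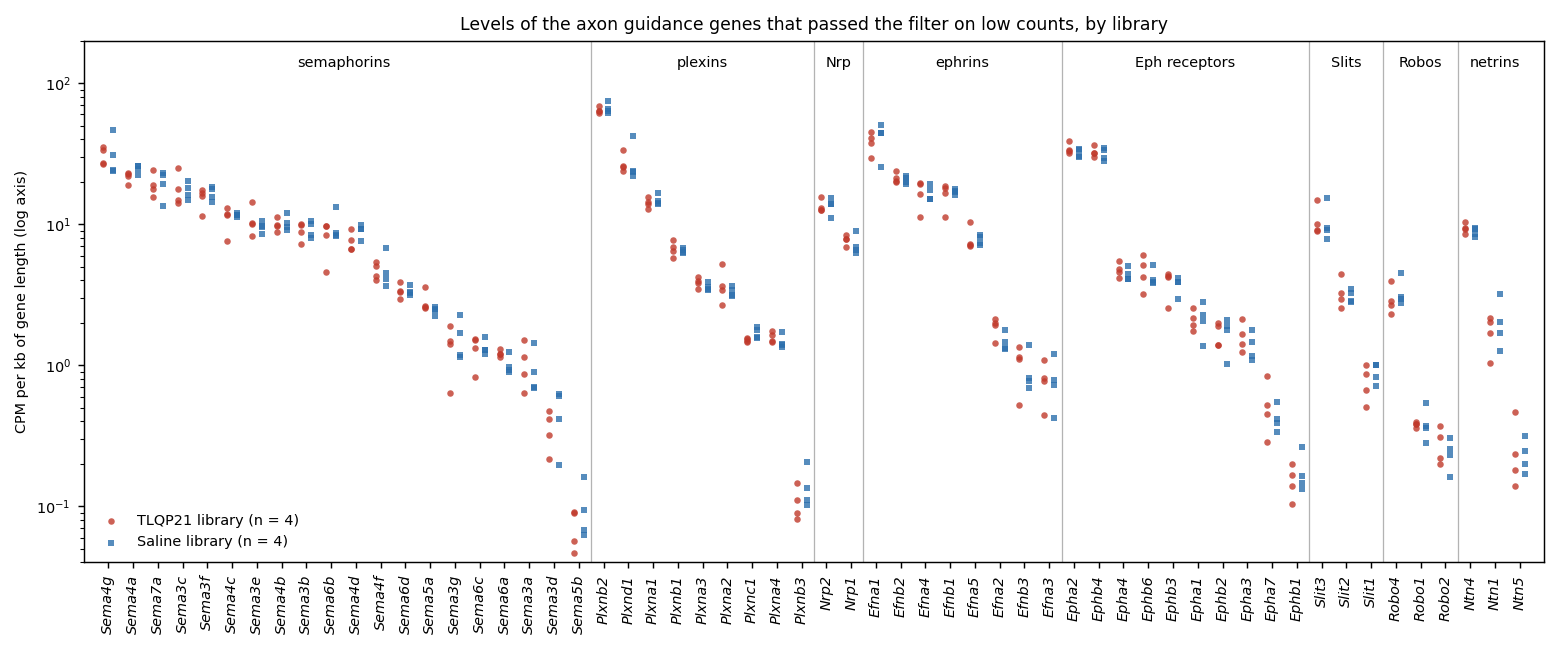
CPM per kb of gene length on a log axis for the 58 tested members, with 1 point per library, TLQP21 left of Saline, and genes ordered by level within each family. Plxnb2, Efna1 and Epha2 stand at the top of the plexins, ephrins and Eph receptors, with Ephb4 just below Epha2. The points of the groups overlap for each gene.

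Among the receptors of semaphorins, Plxnb2 was the most abundant member of all, with 44.9% of the summed per-kb level of plexins and neuropilins. Plxnb2, a receptor of class 4 semaphorins (chromosome 15, 89155549 to 89180788), had 488.2, 489.6, 475.1 and 528.9 CPM in TLQP21, against 493.7, 507.5, 478.2 and 576.9 CPM in Saline. Its highest library had 1.21 times the level of its lowest, the smallest spread of any tested member. The log2 fold change was -0.05 (SE 0.09, 95% interval -0.26 to 0.16), with -0.03 and -0.07 in the Xist and the Y libraries taken apart. Plxnc1, the receptor of Sema7a, had the smallest p of the plexins and neuropilins. Its level was 12.5, 12.9, 12.1 and 13.1 CPM in TLQP21, against 14.8, 13.3, 15.6 and 13.05 CPM in Saline. TLQP21 4 lay above the lowest Saline library, and the log2 fold change was -0.16 (SE 0.11, adjusted p = 0.9999 by edgeR), with -0.15 and -0.18 in those kinds of library. Plxnd1, the endothelial receptor of Sema3e, averaged 27.1 ± 4.27 CPM per kb in TLQP21 and 28.1 ± 9.67 in Saline, and Plxna1, a partner of neuropilins, 14.2 ± 1.11 and 14.8 ± 1.21. The neuropilins, which also bind vascular endothelial growth factors, averaged 13.4 ± 1.43 and 13.6 ± 1.79 for Nrp2 and 7.73 ± 0.586 and 7.19 ± 1.24 for Nrp1. Plxnb1, Plxna2, Plxna3 and Plxna4 lay between 1.53 and 6.59 CPM per kb over the 8 libraries, and Plxnb3 was at 0.123.

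All 8 ephrin genes were tested, and 4 had log2 fold changes above 0 and 4 below. Efna1, the preferred ligand of EphA2, had 74.5, 68.9, 53.8 and 83.1 CPM in TLQP21, against 92.3, 80.8, 46.6 and 81.3 CPM in Saline. Saline held both the highest and the lowest library. The log2 fold change was -0.10 (SE 0.20), with -0.27 and 0.10 in the Xist and the Y libraries taken apart. Efna2 had the largest log2 fold change above 0 of all members and the smallest p of the ephrins, at 4.55, 4.26, 4.08 and 3.06 CPM in TLQP21, against 3.78, 2.77, 2.81 and 3.10 CPM in Saline. Libraries 1 to 3 of TLQP21 were above every Saline library and TLQP21 4 was not, and the log2 fold change was 0.36 (SE 0.20, adjusted p = 0.9999 by edgeR), with 0.43 and 0.27 within the same kinds of library. Efnb2, a marker of arterial endothelium, averaged 21.3 ± 1.90 CPM per kb in TLQP21 and 20.6 ± 1.197 in Saline, Efnb1 16.2 ± 3.45 and 17.0 ± 0.665, Efna4 16.7 ± 3.86 and 16.8 ± 1.97, and Efna5 7.96 ± 1.62 and 7.77 ± 0.609. Efnb3 and Efna3 were under 1 CPM per kb over the 8 libraries.

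Of 14 Eph receptor genes 10 were tested, 7 with log2 fold changes above 0 and 3 below. Epha2 and Ephb4 together held 77.7% of the summed per-kb level. Epha2, an epithelial receptor often abundant in carcinomas (chromosome 4, 141301240 to 141329384), had 157.3, 150.4, 183.1 and 155.5 CPM in TLQP21, against 157.4, 159.1, 141.7 and 139.3 CPM in Saline. TLQP21 3 was the highest and the other 7 libraries were mixed. The log2 fold change was 0.11 (SE 0.09, adjusted p = 0.9999 by edgeR), with -0.04 and 0.27 in the Xist and the Y libraries taken apart, and it had the smallest p among Eph receptors. Ephb4, the venous receptor of ephrin B2, averaged 32.6 ± 2.82 CPM per kb in TLQP21 and 31.4 ± 3.35 in Saline. By level per kb, Efna1 and Efnb2 were thus the leading ephrins, and Epha2 and Ephb4 the leading Eph receptors. Efna1 with Epha2 is a pair known from carcinoma cells, and Efnb2 with Ephb4 from vessels. Which cells held these transcripts here was not tested. Epha4, Ephb6 and Ephb3 lay between 3.80 and 4.59 CPM per kb over the 8 libraries, Epha1, Ephb2 and Epha3 between 1.496 and 2.12, and Epha7 and Ephb1 at 0.473 and 0.165. Ephb6 encodes a receptor without kinase activity.

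Slit3, a secreted ligand of Robos (chromosome 11, 35121224 to 35708507), held 72.4% of the summed per-kb level of Slits. Slit3 had 89.5, 55.1, 60.6 and 54.7 CPM in TLQP21, against 55.1, 57.4, 47.8 and 92.4 CPM in Saline. In each group 1 library stood high (TLQP21 1 and Saline 4), and the log2 fold change was 0.04 (SE 0.23), with 0.36 and -0.28 in the Xist and the Y libraries taken apart. Slit1 had the smallest p of the Slits, at 3.97, 5.90, 5.15 and 2.996 CPM in TLQP21, against 5.96, 4.87, 4.26 and 5.98 CPM in Saline. The log2 fold change was -0.22 (SE 0.24), with -0.13 and -0.33 within the same kinds of library. Slit2 averaged 3.31 ± 0.818 CPM per kb in TLQP21 and 3.10 ± 0.325 in Saline.

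Robo4, the Robo of endothelial cells (chromosome 9, 37401897 to 37415115), held 82.6% of the summed per-kb level of Robos. Robo1 and Robo2, receptors of Slits, were at 0.384 and 0.256 CPM per kb. Robo4 had 21.04, 15.1, 14.3 and 12.2 CPM in TLQP21, against 14.6, 16.2, 15.7 and 24.1 CPM in Saline. The highest libraries of both groups, TLQP21 1 and Saline 4, were also those with the highest endothelial marker level (4.97 and 5.12 log2 CPM, against 4.44 to 4.64 in the others) and the highest Slit3. Those libraries were also the highest for fibroblast markers (7.87 and 7.96 log2 CPM, against 7.22 to 7.54 in the others). The same held for acinar markers (9.90 and 10.8, against 8.23 to 9.57), but not for epithelial tumour markers. Whether the content of vessels or of any other cell type accounts for this was not tested. The log2 fold change of Robo4 was -0.17 (SE 0.21), with 0.23 and -0.59 in the Xist and the Y libraries taken apart. Ntn4, a netrin of basement membranes (chromosome 10, 93640681 to 93747207), held 81.02% of the per-kb level of netrins and Dcc, with 32.1, 34.9, 38.8 and 34.5 CPM in TLQP21, against 34.3, 32.1, 30.6 and 35.2 CPM in Saline. The groups overlapped, the log2 fold change was 0.09 (SE 0.10), and within the same kinds of library it was 0.01 and 0.16. Ntn1, the ligand of Dcc and Unc5 receptors, averaged 1.73 ± 0.495 CPM per kb in TLQP21 and 2.05 ± 0.835 in Saline, while Dcc itself was near 0.

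Other genes of the pathways (intracellular partners, co-receptors, further receptors and ligands) were tested in 3 lists. By edgeR 0 passed at an adjusted p under 0.05. The semaphorin and plexin partners had 16 log2 fold changes above 0 and 15 below (median 0.0038, 31 tested), the Eph and ephrin partners 8 and 13 (-0.02, 21 tested), and the Slit, Robo and netrin partners 13 and 17 (-0.02, 30 tested). The only partner with an unadjusted p under 0.05 was Rnd1, a GTPase that binds plexins, at 12.7, 6.56, 7.54 and 6.24 CPM in TLQP21, against 12.4, 12.99, 17.6 and 41.8 CPM in Saline (log2 fold change -1.36, SE 0.41, unadjusted p = 0.00777, adjusted p = 0.9999 by edgeR). Saline 4 stood far above the rest and TLQP21 1 lay within the Saline range. Of all genes, 3.06% had an unadjusted p under 0.05 by edgeR (2.26% lower in TLQP21). Log2 fold changes lay above 0 for 50.6% of all genes and below 0 for 49.4%. Rnd1 was 1 of 31 partners tested in its list. The next of that list were the adhesion molecule L1cam (-0.50, SE 0.27) and Tagap (-0.44, SE 0.26). Among Eph and ephrin partners the smallest p belonged to the exchange factors Kalrn (-0.23, SE 0.12), Tiam1 (-0.25, SE 0.14) and Vav2 (-0.10, SE 0.07), and among Slit, Robo and netrin partners to Ntng2, a membrane-anchored netrin relative (-0.85, SE 0.38), Rgmb (0.13, SE 0.10) and the focal adhesion kinase gene Ptk2 (0.14, SE 0.12). Ntng2 was at 19.4 CPM in Saline 4, against 7.55 to 9.53 in Saline 1 to 3, and TLQP21 1 (9.95) lay within the Saline range. None of these partners passed.

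Single libraries stood apart for many members. TLQP21 4 held the highest value of 16 of the 58 members (27.6%, against 26.8% of all genes) and the lowest of 18 (31.0%, against 27.2%). Saline 4 held the highest of 16 (27.6%, against 16.5%) and the lowest of 3 (5.17%, against 17%). In Saline 4, Plxnd1 stood at 310.4 CPM, above the 173.03 to 243.4 of the TLQP21 libraries and the 161.5 to 174.9 of Saline 1 to 3. The netrin Ntn1 was at 20.2 CPM there, with 7.96 to 12.6 in the other Saline libraries. Sema5a reached 66.7 CPM in TLQP21 4, above the 47.3 to 48.8 of TLQP21 1 to 3 and the 41.5 to 48.4 of Saline. Efna5 reached 41.9 CPM there, above 28.4 to 29.3 in TLQP21 1 to 3 and 28.8 to 33.9 in Saline. Slit2 was at 113.5 CPM in TLQP21 4, above the 65.3 to 82.7 of TLQP21 1 to 3. In the same library Sema6b was at 18.1 CPM, below the 33.2 to 38.6 of TLQP21 1 to 3, and Sema3g at 2.87, below their 6.44 to 8.55. These genes were chosen after their values were seen. Without Saline 4 the median log2 fold change of members was 0.05, without TLQP21 4 it was 0.02, and without both it was 0.06, with 0 members past an adjusted p of 0.05 each time.

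**Figure D4:**
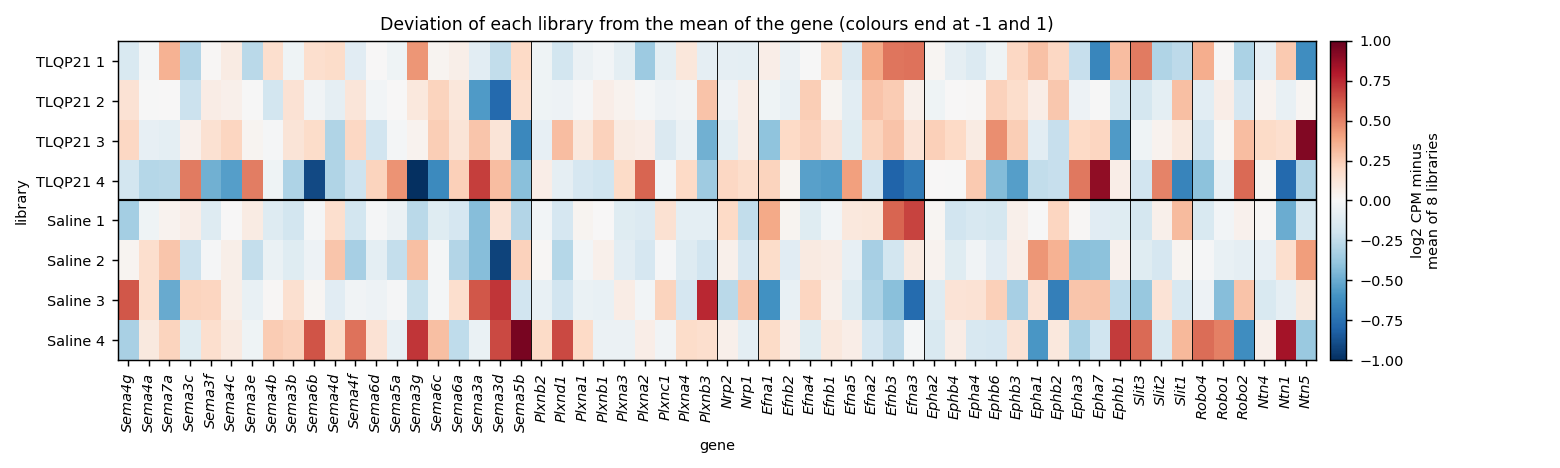
Log2 CPM of each tested member in each library minus its mean over the 8 libraries, with TLQP21 rows above Saline rows and colours ending at -1 and 1. TLQP21 4 is the highest library for 16 members and the lowest for 18, and Saline 4 is high for Sema3g, Sema5b, Plxnd1, Robo4 and Ntn1.

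The split of the libraries by Xist and Y-linked transcripts was tested with treatment as a covariate. Adjusted over all genes, 0 of 58 members passed in either direction by edgeR (0.241% of all genes called higher and 0.132% lower in the Y libraries). Unadjusted, 8 members had a p under 0.05 (13.8%, against 13.6% of all genes), 6 higher (10.3%, against 7.08%) and 2 lower (3.45%, against 6.52%). Sema3a, a secreted repellent of axons (chromosome 5, 13125414 to 13602565), had the smallest p. Its level was 15.8, 21.06, 20.04 and 12.4 CPM in the Y libraries (TLQP21 3 and 4, Saline 3 and 4), against 12.1, 8.75, 9.63 and 9.67 CPM in those with Xist (TLQP21 1 and 2, Saline 1 and 2). The ranges did not overlap, and the log2 difference was 0.79 (SE 0.19, adjusted p = 0.148 by edgeR). By DESeq2 it passed (adjusted p = 0.00536), the only member to do so (1.72%, against 1.06% of all genes called higher by DESeq2). Its neighbour Sema3d was at 3.55, 4.05, 5.39 and 5.18 CPM, against 2.74, 1.87, 3.57 and 1.68 CPM (log2 difference 0.87, SE 0.26, adjusted p = 0.218 by edgeR), with Saline 1 just above TLQP21 3. Ephb2, a receptor of B-type ephrins, ran the other way at 17.6, 17.7, 12.9 and 22.3 CPM, against 23.9, 24.96, 24.03 and 26.4 CPM (-0.50, SE 0.16, adjusted p = 0.244 by edgeR), without overlap. Of all genes, 4.79% did not overlap and were higher and 4.56% did not overlap and were lower, against 1 member each (1.72%).

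**Figure D5:**
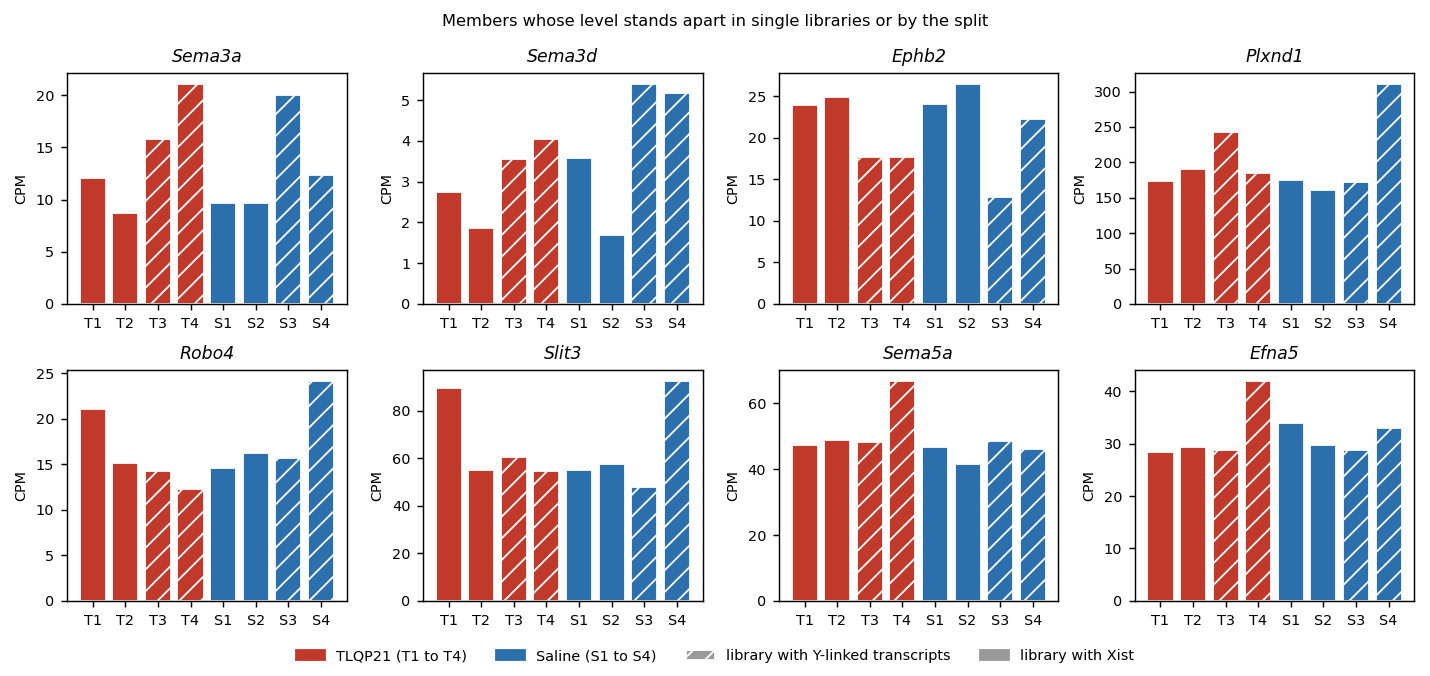
CPM in each library for 8 members whose level stands apart in single libraries or by the split, with TLQP21 bars (T1 to T4) left of Saline bars (S1 to S4) and hatched bars for libraries with Y-linked transcripts. Sema3a is higher in each hatched library than in each plain one, Robo4 and Slit3 peak in T1 and S4, and Sema5a and Efna5 in T4.

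Whether the difference between TLQP21 and Saline itself differed between the kinds of library was tested with an interaction term. By edgeR 0 of 58 members passed adjusted, and 1 had an unadjusted p under 0.05 (1.72%, against 4.8% of all genes, 2.07% in the same direction). That member was Robo4, with an interaction of -0.82 (SE 0.35, unadjusted p = 0.0497, adjusted p = 0.842 by edgeR). Plxnb3 (-1.26, SE 0.56) and Sema3b (-0.47, SE 0.23) followed without passing. With 2 libraries of each treatment per kind, the groups behind this term are small. For Robo4 the high library is TLQP21 1 in one kind and Saline 4 in the other.

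Counting could be ambiguous for some members. Exons of 15 members share bases with another annotated gene, over 10% of exon bases in 4 of them, Plxna1 (10.7%), Efna4 (10.5%), Efna3 (14.1%) and Ntn5 (23.4%), with Gm26811, 4731419I09Rik, Gm15998 and Sec1 in that order, all on the opposite strand. As the strand setting of the counting is not given in the sources used here, the levels of these 4 genes are uncertain.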

How the data were processed

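For 4 TLQP21 and 4 Saline libraries, tumour RNA was sequenced as paired ends on an Illumina NovaSeq after NEBNext Ultra preparation, per the labels' protocols. Raw counts for each gene, whole numbers without scaling, were deposited by the authors together with gene lengths. The authors' tools were featureCounts 1.5.0-p3, DESeq2 1.32.0 and HISAT2 2.0.5, and the build GRCm38 (mm10), per the submitters' processing notes; strand setting and annotation release are not given in the sources used here. Coordinates are those of the table, 1-based, and match GENCODE M21 for 63 of 64 members.

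In R 4.3.3, edgeR 4.0.16 was applied to every gene's counts (default low-count filter by group, TMM scaling, quasi-likelihood test, Benjamini-Hochberg adjustment over 18238 genes, threshold 0.05), with DESeq2 1.42.0 and limma 3.58.1 (voom with quality weights) as other tools. CPM use TMM-scaled library sizes, and per-kb levels divide by the deposited gene length. Log2 levels use a prior count of 2. Counts of any pair of libraries of a group differed by more than sampling noise (chi-square per degree of freedom at least 28.6), which does not show whether they came from separate mice. Members and lists were chosen with earlier results of these data known. In each family, full values are given for the member with the highest CPM per kb and that with the smallest p, and for any with an unadjusted p under 0.05 or ranges without overlap, with up to 3 members for the split and for the interaction and up to 3 partners per list; other members are given by level. Promoters come from RefSeq (GRCm38.p6), the first listed start of each gene.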

Additional observations from a re-analysis of the deposited data

Results flagged for a closer look

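In 9 of 116 sets of 4 libraries (58 members in each of the treatments), a library lay beyond Dixon's 95% limit for 4 values. Chance flags about 1 in 20 sets. The share flagged over all genes was not computed, so whether 9 is many for these libraries cannot be told. Over all genes, TLQP21 4 was the highest library for 26.8% and the lowest for 27.2%. TLQP21 4 was high for Sema5a (66.7 CPM, against 47.3 to 48.8 in the other TLQP21 libraries), Nrp2 (184.1, against 148.7 to 153.4) and Efna5 (41.9, against 28.4 to 29.3), and low for Ephb3 (16.9, against 28.01 to 29.4). Saline 4 was high for Sema6b (52.7 CPM, against 32.9 to 34.5 in Saline 1 to 3), Plxnd1 (310.4, against 161.5 to 174.9) and Robo4 (24.1, against 14.6 to 16.2). TLQP21 1 was high for Slit3 (89.5 CPM, against 54.7 to 60.6), and Saline 3 was high for Ephb6 (19.3 CPM, against 14.5 to 15.2).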

How the results depend on the processing

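No member and no partner was called between TLQP21 and Saline under any of 19 alternatives, which covered other scalings, filters and tools, covariates, protein-coding genes alone and libraries left out. Over all genes, DESeq2 called 4 and voom 1, all lower in TLQP21. Members at an unadjusted p under 0.05 numbered 0 in the main test, 4 with voom (6.9%, against 10.6% of all genes), 1 with the Xist and Y-linked split as a covariate (1.72%, against 4%) and 1 without Saline 2 and TLQP21 4 (1.72%, against 3.34%). With each library left out in turn they numbered 0 to 3, with 3 without Saline 3 (5.17%, against 4.08%), and 1 without TLQP21 1, TLQP21 4 or Saline 1 (1.72%, against 5.6%, 3.1% and 3.09%). The median log2 fold change of members was 0.058 without Saline 4 and TLQP21 4, an alternative chosen after seeing the data. For the split, DESeq2 called 1 member (Sema3a) and edgeR 0 under every other setting run; leaving out each library gave 0.65 to 0.90 for Sema3a. Of the library total and 14 marker levels, 1 passed an unadjusted exact test, and 0 to 2 with a library left out. Same-numbered libraries of the treatments did not deviate together more than other pairs of the same kind (Xist or Y). Correlations of deviations were 0.11, 0.19, 0.27 and -0.05 for equal numbers, against 0.16 to 0.30 for unequal numbers within a kind. Across kinds, where numbers always differ, they ran from -0.43 to 0.06. With the replicate number as a block 0 members and 0 genes were called, while Sema4g turned to 0.0095.

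Log2 fold changes near 0 turned direction. Sema4g was at 0.18 with voom, 0.0103 without Saline 2 and TLQP21 4, 0.15 within the libraries with Xist, and -0.15 to 0.22 with each library left out. With each library left out, Plxnb2 ran from -0.089 to 0.0014, Efna1 from -0.27 to 0.012, Slit3 from -0.15 to 0.28 and Robo4 from -0.35 to 0.0097. Slit1 was at 0.019 with voom and Robo4 at 0.11 without Saline 4 and TLQP21 4. Within the libraries with Xist, Robo4 was at 0.23 and Epha2 at -0.041; within those with Y-linked transcripts, Efna1 was at 0.098 and Slit3 at -0.28. The cause was not tested.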

Other observations

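In TLQP21 4, deviations tended to be higher for long than for short members, with exceptions. The deviation of this library from the mean of the 8 was 0.20 (log2, median) for the 29 members longer than 6567 bases and -0.31 for the 29 shorter ones. Across the 58 members, Spearman's rho between the deviation and gene length was 0.62 in TLQP21 4, and across 14780 protein-coding genes it was 0.32. In the other 7 libraries rho lay between -0.42 (TLQP21 1) and 0.17 (Saline 3) across members, and between -0.28 and 0.14 across protein-coding genes. These correlations are across genes of the same library and deviations of the 8 libraries sum to 0, so they are descriptions and not independent values. The longest members, Slit2 (25433 bases), Sema5a (18686) and Plxna2 (17174), deviated by 0.50, 0.45 and 0.58 in TLQP21 4, and the shortest, Efna4 (1599), Efna1 (1830) and Efna2 (2131), by -0.54, 0.23 and -0.19. Long Ephb2 (12608) and Robo1 (16511) deviated by -0.23 and -0.07, and short Efna5 (4032) by 0.41. The cause was not tested.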
